A study of Mus musculus with 8 samples.

Results

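Neutrophils of the mouse sciatic nerve were picked out of single-cell RNA data by 2 measures, the share of their RNA that came from S100a8 and S100a9, and the presence of a transcript of Csf3r or Cxcr2. A barcode of the 1 week libraries counted as a neutrophil when it had at least 200 detected genes, under 10% mitochondrial UMIs, at least 1% of its UMIs from S100a8 plus S100a9, and at least 1 UMI of Csf3r or Cxcr2. A UMI is a tag that marks 1 captured RNA molecule. The rule took 512 of the 3844 barcodes that passed the first 2 filters, 460 in the library of the PSNL samples and 52 in the library of the crush samples, and left 3332 other barcodes. The whole series held 9133 barcodes in 4 libraries. Since the cells were selected on these measured levels, the levels of S100a8, S100a9, Csf3r and Cxcr2, and all levels in neutrophils beside those in the other barcodes, are given as a description. The fits between injuries run over all genes, and nothing is read from these 4 in them.

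The study followed myeloid cells after 2 injuries of the sciatic nerve of male and female C57BL/6JolaHsd mice, which were bought at 7 weeks of age. PSNL is a partial ligation of the nerve, crush is a full squeeze of the nerve, and sham is surgery without the injury. Live CD45+/CD11b+ cells were sorted and marked with hashtag antibodies, so that 1 library held several samples. The groups used here were PSNL at 1 week (1 female and 1 male sample), crush at 1 week (1 female and 1 male) and sham at 1 week (1 female and 1 male), with PSNL (2 female, 2 male) and crush (2 female, 1 male) at 15 weeks set beside them. At the early time points Ly6G+ cells were kept out of the sort. Ly6G is the surface protein by which mouse neutrophils are usually sorted, so the cells described here are the ones that passed a gate meant to leave neutrophils out, and their shares are not those of the tissue. The sources do not say if each hashtag marks a single mouse or a pool, and 15 week sham nerves were not used here. The PSNL library also held the sham female and the crush library the sham male, so injury model and library cannot be told apart. The 15 week samples were in separate libraries, counted with another version of the software Cell Ranger (7.0.0 beside 6.0.0 at 1 week).

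Neutrophils are short-lived white blood cells that leave the blood within hours of tissue damage. They carry ready-made granules with proteases and antimicrobial proteins, sense bacterial peptides and chemokines through surface receptors, and release cytokines and chemokines that draw in monocytes. S100a8 and S100a9 encode the subunits of calprotectin, a calcium- and zinc-binding protein that fills the neutrophil cytosol. Csf3r encodes the receptor for G-CSF, the growth factor of neutrophils, and Cxcr2 the receptor by which they follow the chemokines Cxcl1 and Cxcl2. In an injured nerve they arrive before most monocyte-derived macrophages and take part in clearing myelin.

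Hashtags were assigned at the valley between the low and high counts of each antibody, and a barcode was given to a sample when exactly 1 hashtag lay above its valley. In the summed neutrophils, Xist, the RNA that silences the inactive X chromosome of females, stood at 436 and 225 CPM in the PSNL and crush females and at 6.75, 0 and 0 CPM in the PSNL, crush and sham males. Ddx3y, a gene of the Y chromosome, was at 145, 290 and 139 CPM in those males and 0 CPM in both females, so the hashtags matched the sexes. CPM are UMIs of a gene per 1000000 UMIs of all summed cells of a sample. The libraries shared between 1 and 3 barcode sequences per pair, and 0 of these were neutrophils in both.

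The S100a8 and S100a9 genes lie close together on chromosome 3 of GRCm38 (S100a8 at chr3:90668978-90670035 on the plus strand, S100a9 at chr3:90692632-90695721 on the minus strand). Their promoters are shown because these genes chose the cells, and that of Retnlg (chr16:48872621-48874496, plus strand) because it had the lowest adjusted p of the listed neutrophil genes between the injuries. Each is the RefSeq sequence (GRCm38.p6) from 250 bases before to 50 bases after the start, read on the gene's own strand, at chr3:90668821-90669120 (S100a8), chr3:90695672-90695971 (S100a9) and chr16:48872358-48872657 (Retnlg). Capitals mark every match to TTNNGNAA on either strand, a core of the motif that C/EBP factors bind.
S100a8: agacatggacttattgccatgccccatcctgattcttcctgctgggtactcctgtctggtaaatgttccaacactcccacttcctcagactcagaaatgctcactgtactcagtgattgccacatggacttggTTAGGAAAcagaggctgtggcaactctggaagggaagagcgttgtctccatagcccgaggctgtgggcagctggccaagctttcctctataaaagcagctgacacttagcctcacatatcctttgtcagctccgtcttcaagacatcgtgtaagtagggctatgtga
S100a9: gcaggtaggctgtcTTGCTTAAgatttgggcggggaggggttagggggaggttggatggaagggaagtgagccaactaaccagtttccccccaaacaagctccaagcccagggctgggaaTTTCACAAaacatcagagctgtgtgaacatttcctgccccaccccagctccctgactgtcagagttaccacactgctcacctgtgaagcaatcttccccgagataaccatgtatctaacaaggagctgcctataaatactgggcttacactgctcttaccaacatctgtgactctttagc
Retnlg: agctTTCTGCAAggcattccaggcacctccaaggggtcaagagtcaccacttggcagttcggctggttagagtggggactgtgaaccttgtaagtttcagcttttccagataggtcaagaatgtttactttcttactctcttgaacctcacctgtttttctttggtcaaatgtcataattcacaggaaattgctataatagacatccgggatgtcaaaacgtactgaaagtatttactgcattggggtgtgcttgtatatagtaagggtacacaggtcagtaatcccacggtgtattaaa
S100a8 held 1 match, S100a9 held 2 and Retnlg held 1. Such a match stood in 40.7% of the 32851 mouse promoters of the same length, and in 9 of the 17 promoters (52.9%) found among the 20 leading genes of these neutrophils. A match describes the letters and is no evidence of binding.

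The share of neutrophils was highest after PSNL. The PSNL female held 179 neutrophils among 598 barcodes (29.9%, exact 95% interval 26.3 to 33.8) and the PSNL male 115 among 929 (12.4%, 10.3 to 14.7). In the crush female 6 of 364 barcodes were neutrophils (1.65%, 0.607 to 3.55), and in the crush male 21 of 673 (3.12%, 1.94 to 4.73). The sham female had 1 among 70 (1.43%, 0.0362 to 7.70) and the sham male 12 among 110 (10.9%, 5.77 to 18.3). Both PSNL samples lay above all crush and sham samples, and the crush samples lay between the sham samples. These exact binomial (Clopper-Pearson) intervals cover counting error only, and the sham intervals are wide because so few sham barcodes were sorted.

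**Figure D1:**
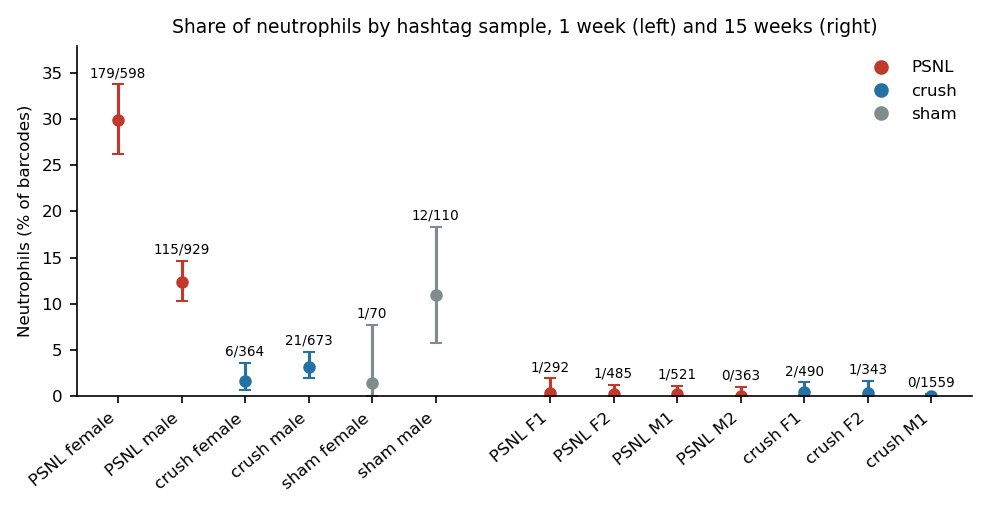
Share of neutrophils (y axis, % of barcodes with 1 hashtag) in each hashtag sample at 1 week and at 15 weeks; points are the shares and bars their exact 95% binomial intervals, coloured by surgery. The PSNL female at 29.9% stands highest, and no 15 week sample exceeds 0.408%.

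Averaged over samples the share was 21.2 ± 12.4% after PSNL and 6.17 ± 6.70% in sham (SD, n = 2 each), a difference of 15.0 percentage points (exact two-sided permutation test, p = 0.333, adjusted over the 3 comparisons to 0.5). After crush it was 2.38 ± 1.04%, which differed from sham by -3.78 points (exact permutation test, p = 1) and from PSNL, as PSNL minus crush, by 18.8 points (exact permutation test, p = 0.333, adjusted 0.5). With 2 samples against 2 the smallest p this test can give is 0.333, so no share comparison could pass. Within the PSNL library the PSNL samples stood at 29.9% and 12.4% beside 1.43% in the sham female, and within the crush library the crush samples stood at 1.65% and 3.12% beside 10.9% in the sham male. The sham sample was thus the lowest of its library in the first and the highest of its library in the second. Without the sham male, the crush minus sham difference turned to 0.956 points.

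At 15 weeks the same rule found 4 neutrophils among 1779 barcodes of the PSNL library (0.225%) and 4 among 2453 of the crush library (0.163%). By sample there were 1 of 292, 1 of 485, 1 of 521 and 0 of 363 after PSNL, and 2 of 490, 1 of 343 and 0 of 1559 after crush. The count of 0 in 363 barcodes allows a share of up to 0.826%, and that in 1559 barcodes up to 0.192%. These few cells still carried the signature outside the rule, with Il1b at 6211 CPM (PSNL library) and 5982 CPM (crush library) and Retnlg at 1085 and 1474 CPM. Time coincides with library, and the exclusion of Ly6G+ cells is stated for the early time points only, so time, library and gate cannot be told apart.

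Neutrophils were small in RNA content. Their median was 2141 UMIs and 860 genes in the PSNL library, against 5308 UMIs and 1673 genes in the other barcodes, and 1890 UMIs and 796.5 genes in the crush library, against 4734 UMIs and 1645 genes. Mitochondrial transcripts took a median of 0.406% (PSNL library) and 0.282% (crush library) of neutrophil UMIs, against 2.48% and 3.15% in the other barcodes. S100a8 plus S100a9, the measure of the rule, ran from 1.00 to 38.9% of a neutrophil's UMIs in the PSNL library (median 5.70%) and from 1.17 to 30.4% in the crush library (median 7.28%), while the median of the other barcodes was 0%.

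Most neutrophils lay clear of the limit of the rule. Between 1% and 1.5% there were 44 in the PSNL library and 2 in the crush library, and just outside it, between 0.5% and 1% with a receptor UMI, lay 74 and 11 barcodes. A further 69 and 2 barcodes reached 1% without a UMI of either receptor, with a median of 1444 and 1533 UMIs. Both receptors were detected in 304 neutrophils of the PSNL library and 44 of the crush library, Csf3r alone in 105 and 5, and Cxcr2 alone in 51 and 3.

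**Figure D2:**
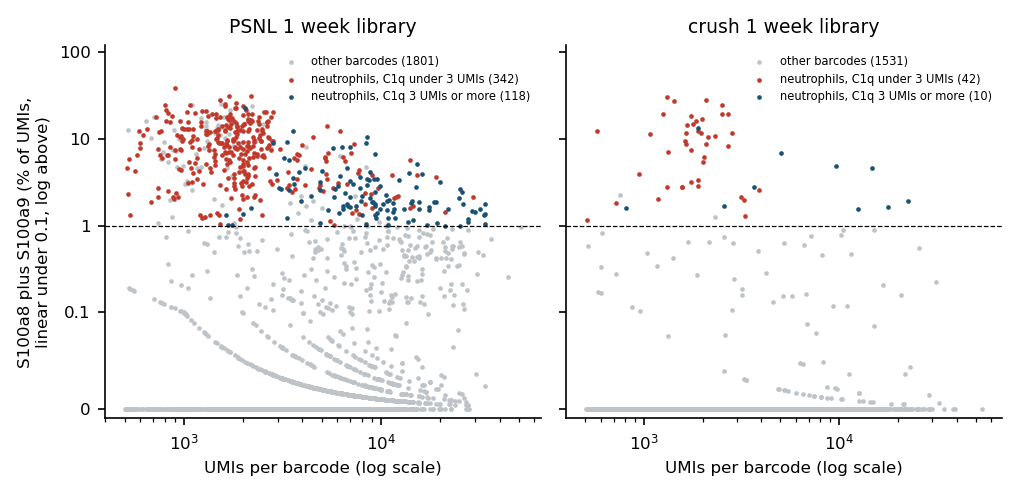
S100a8 plus S100a9 as a percentage of UMIs (y axis, linear under 0.1 and logarithmic above) against UMIs per barcode (x axis, log scale) in the PSNL and the crush library at 1 week; each point is a barcode, with neutrophils, neutrophils with 3 or more C1q UMIs and the other barcodes coloured apart and the 1% limit dashed. The neutrophils with C1q UMIs sit at the deep end, with a median of 8899.5 UMIs in the PSNL library against 1838 for the rest.

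Some of the barcodes taken by the rule also carried macrophage RNA. Of the neutrophils, 118 in the PSNL library (25.7%) and 10 in the crush library (19.2%) had 3 or more UMIs of the complement genes C1qa, C1qb and C1qc, and their medians were 8899.5 and 7359.5 UMIs, against 1838 and 1809.5 UMIs for those with fewer. In the PSNL library the 14 macrophage markers summed to 13013 CPM in the C1q barcodes and 2574 CPM in the rest, and the 4 genes of the rule to 23766 and 72114 CPM. In the crush library the macrophage markers summed to 5180 and 1287 CPM. The dendritic cell markers summed to 25943 and 1034 CPM in the crush library and to 8376 and 3811 CPM in the PSNL library. Of the C1q barcodes, 93 and 8 had several hashtags. Barcodes with several hashtags made up 163 neutrophils (35.4%) in the PSNL library and 12 (23.1%) in the crush library, against 26.9% and 26.4% of the other barcodes. Their medians were 7038 and 4470 UMIs, while neutrophils with 1 hashtag had 1816 and 1838 UMIs. The part of droplets with more than 1 cell was not tested with a caller, and the comparisons between samples below use only barcodes with 1 hashtag.

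Ly6g itself, on chromosome 15 of GRCm38 (75155240 to 75159126, plus strand), was nearly undetected. The neutrophils of the PSNL library had 19 Ly6g UMIs in 17 of 460 cells (8.50 CPM, exact Poisson 95% interval 5.12 to 13.3) and those of the crush library 7 UMIs in 2 of 52 cells (41.0 CPM, 16.5 to 84.5), against 0.416 and 0.218 CPM in the other barcodes. Thinned to 1000 UMIs per cell, 2.61% of the PSNL female's neutrophils had a Ly6g UMI (3.91% unthinned, 26 shallower cells left out).

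Genes of early neutrophil life were at or near 0. Mpo and Elane, the peroxidase and the elastase of the primary granules made in the bone marrow, had 0 UMIs in 512 neutrophils, and of the 6 primary granule genes measured 4 were at 0 in all of the samples. The secondary granule genes Camp, Ltf and Ngp had 1, 3 and 7 UMIs in the PSNL library and 0 in the crush library. Lcn2, which encodes the iron-trapping protein lipocalin 2 of the same granules, was at 607 and 341 CPM in the neutrophils of the PSNL female and male, 500.4 CPM in the crush male and 371 CPM in the sham male. The other barcodes of these samples held 0 to 8.42 CPM. Mki67, a marker of dividing cells, had 46 UMIs in 15 of 460 neutrophils of the PSNL library. This made 20.6 CPM, against 17.5 CPM in the other barcodes, so it was not lower in the neutrophils there. In the crush library it had 0 UMIs in the neutrophils, against 57.4 CPM in the other barcodes. The cells thus held little RNA of Mpo, Elane, Camp, Ltf and Ngp, granule genes of immature neutrophils.

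The levels below are those of the 4 samples with at least 10 neutrophils, which are the PSNL female (179 cells, 410193 UMIs), the PSNL male (115 cells, 296423 UMIs), the crush male (21 cells, 37973 UMIs) and the sham male (12 cells, 21588 UMIs). The crush female's 6 neutrophils held 13347 UMIs, so that 1 UMI there makes 74.9 CPM, and its values are given where they bear on a comparison. The sham female had 1 neutrophil, which enters no level. Of 1965 genes with at least 100 CPM in either class, 778 (39.6%) were higher and 715 (36.4%) lower in the neutrophils than in the other barcodes of all 4 samples. The counts of the lists that follow are read against these shares.

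Beyond the genes of the rule, the highest contrast with the other barcodes was that of Hdc, which makes histamine, with a mean log2 difference of 5.83 on the scale of CPM plus 10. G0s2, an inhibitor of fat breakdown, followed at 5.72, Retnlg, a resistin-like secreted protein of neutrophils, at 5.52, Wfdc21 at 5.43 and Slpi, an inhibitor of neutrophil elastase, at 5.39. Acod1, which makes itaconate, stood at 5.16, and Il1f9, an interleukin 1 family cytokine, at 5.13. Among the largest shortfalls were those of S100a4 (-4.56) and Cd74 (-4.09), the chaperone of MHC class II. All of these had the same direction in the 4 samples.

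**Figure D3:**
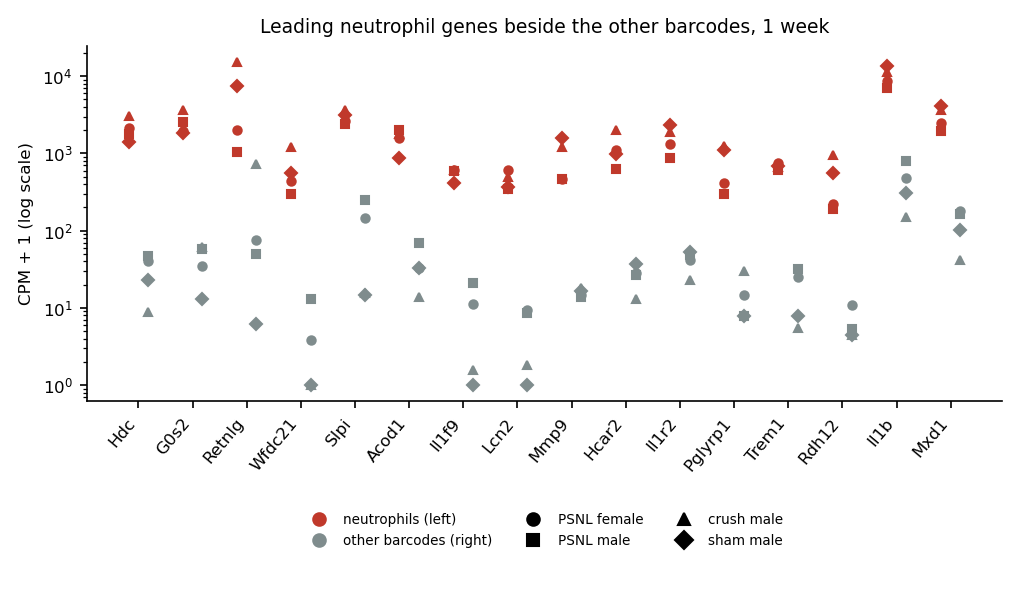
Levels (y axis, CPM plus 1, log scale) of the 16 genes that led the neutrophils outside the rule, in the neutrophils (left of each pair) and the other barcodes (right) of the PSNL female, PSNL male, crush male and sham male. Every neutrophil point lies above the other barcodes of the same sample, and Retnlg runs from 1049 CPM in the PSNL male to 15432 CPM in the crush male.

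Granule proteases and receptors of mature neutrophils were among the genes higher in the neutrophils, with 7 of the 8 tertiary granule genes higher in all 4 samples and 0 lower. Mmp9, the gelatinase that cuts basement membrane, was at 471 and 459 CPM in the PSNL neutrophils, 1211 CPM in the crush male's and 1575 CPM in the sham male's, and the other barcodes of these samples held at most 17.2 CPM. Fpr2, a receptor for formylated peptides, lay between 186 and 237 CPM in the neutrophils and at or below 17.3 CPM in the other barcodes.

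Surface receptors followed the same pattern, with 14 of 18 genes higher in the neutrophils of all 4 samples. Trem1, which amplifies inflammatory signals, was at 753 and 601 CPM after PSNL, 658 CPM in the crush male and 695 CPM in the sham male, nearly the same in each. Ccr1, a receptor for Ccl3, lay between 1258 and 2085 CPM. Cxcr4, the receptor that rises as neutrophils age and guides them back to the marrow, was at 495 and 496 CPM in the neutrophils of the PSNL samples, 1396 CPM in the crush male's and 788 CPM in the sham male's. It passed no test between groups.

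Cytokine RNA was abundant. Il1b, the main fever-causing cytokine of neutrophils and monocytes, was at 8765 and 6990.4 CPM in the PSNL neutrophils, 11482 CPM in the crush male's and 13666 CPM in the sham male's, against 148 to 786 CPM in the other barcodes. Of the 12 cytokine genes, 8 were higher in the neutrophils of all 4 samples, among them Il1r2, the decoy receptor that traps interleukin 1 (860.3 to 2363 CPM), and Csf1, the growth factor of macrophages (278 to 968 CPM). Thinned to 1000 UMIs, an Il1b UMI was found in 96.1% and 95.9% of PSNL neutrophils and in 100% and 100% of those of the crush and sham males (unthinned 98.9, 96.5, 100 and 100%), with 26, 17, 1 and 2 shallower cells left out. In the other barcodes the thinned shares were 22.2, 29.3, 7.04 and 16.1%.

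Of the 11 chemokines, 4 were higher and 4 lower in the neutrophils of all 4 samples, shares near those over all genes. Cxcl2, which attracts further neutrophils through Cxcr2, was at 16669 and 19315 CPM after PSNL, 12351 CPM in the crush male and 11627 CPM in the sham male, and 219 to 4070.3 CPM in the other barcodes. Ccl3 and Ccl4, which attract monocytes and T cells, and Ccrl2 were the other genes higher in the neutrophils, and Cxcl1, Ccl2, Ccl5 and Ccl9 were lower. Ccl2, the ligand that draws Ccr2+ monocytes, reached 58.5 and 159 CPM in PSNL neutrophils and 0 CPM in those of the crush and sham males, against 32.5 to 407 CPM in the other barcodes.

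Of 10 transcription factor genes, 7 were higher in the neutrophils of all 4 samples. Cebpb, a C/EBP factor of emergency granulopoiesis, lay between 3345 and 5281 CPM and Klf2 between 975 and 1527 CPM. Of 11 genes of NF-kB feedback, 8 were higher, led by Nfkbia, the inhibitor that holds NF-kB in the cytosol (2976 to 4335 CPM), and Zfp36, which destabilizes cytokine mRNA (2237 to 4345 CPM). Mcl1, the survival protein on which neutrophils depend, was at 3172 and 2608 CPM in PSNL neutrophils, 3845 CPM in the crush male's and 4539.8 CPM in the sham male's. Of the 11 genes of survival and apoptosis, 4 were higher in all 4 samples and 1, Bax, was lower.

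Of the 16 glycolysis and hypoxia genes, 5 were higher in the neutrophils of all 4 samples and 1, Ldha, was lower. Slc2a3, a glucose transporter with high affinity, was at 375 and 233 CPM after PSNL, 369 CPM in the crush male and 417 CPM in the sham male, against 8.35 to 16.9 CPM in the other barcodes. The lactate exporter Slc16a3 lay between 570.2 and 737 CPM. Of 7 genes of the NADPH oxidase and superoxide handling, 4 were higher, including Ncf4 (244, 280.0, 211 and 232 CPM), and 2 were lower, of which Cybb, the membrane subunit, was at 151 and 213 CPM after PSNL, 184 CPM in the crush male and 0 CPM in the sham male, against 343 to 783 CPM. Padi4, which citrullinates histones when neutrophil traps form, was low, at 46.3 and 27 CPM after PSNL, 132 CPM in the crush male and 185 CPM in the sham male.

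Cells of 1 sample differed widely among themselves. Cxcl2 took a median of 1.31% of a cell's UMIs in the PSNL female, with a range of 0 to 9.92%, and 1.78% in the PSNL male, with a highest value of 8.24%. Il1b was at 0 in 2 of the PSNL female's 179 cells and 4 of the PSNL male's 115, and reached 1% of UMIs in 85 and 41 cells. The 16 interferon-stimulated genes summed to a median of 0.535%, 0.504%, 0.561% and 0.52% in the PSNL female, PSNL male, crush male and sham male, and reached 1% in 43, 33, 4 and 1 cells. Cells at 1% or more were thus 24.0% of the PSNL female's 179 cells, 28.7% of the PSNL male's 115, 19.0% of the crush male's 21 and 8.33% of the sham male's 12. With so few crush and sham cells, a difference in this share between samples cannot be read. The highest values were 4.40% in the PSNL female, 5.59% in the PSNL male and 5.56% in the crush male. In the sham male the highest was 1.27%, and in the crush female 0 of 6 cells reached 1% (highest 0.256%).

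To compare the injuries (differences are given ± their standard error), UMIs were summed over the neutrophils of each sample and 3030 genes were tested with edgeR's quasi-likelihood test, with p-values adjusted by Benjamini and Hochberg over all of them and 0.05 as the threshold. The fit had 4 samples and 1 residual degree of freedom, which comes from the difference between the PSNL female and the PSNL male. The lone crush and sham samples are assumed to vary like them. edgeR draws each gene's spread towards one pooled over genes, here with a prior of 34.65 degrees of freedom. The p-values thus rest mostly on that pooled spread. With the crush female added (5 samples with at least 5 neutrophils, 1089 genes), edgeR called 0 genes between PSNL and sham (133 at an unadjusted p under 0.05), 0 between crush and sham (56 unadjusted) and 24 between PSNL and crush. Most fits that leave out 1 sample start from these 5 samples and hold the crush female. They thus differ from the 4-sample fit by the added crush female as well as by the sample left out. These changes cannot be told apart in the values given below. Without the crush female the fit is the 4-sample one again, and fits of 3 of those 4 were also run. For the calls described below, their adjusted p is given where it ends the call, and their log2 difference where it moved by over 1.5 times and no group was at 0. Genes with low counts were filtered out of some of these fits, so a missing value does not mean that a call held. DESeq2 on the same 4 samples called 15, 1 and 11 genes. With at least 2% of UMIs from S100a8 and S100a9, edgeR called 0 in each comparison, with 302, 180 and 359 genes at an unadjusted p under 0.05.

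Ribosomal RNA and the markers of other cells moved with the injuries too. Gm42418, a transcript that overlaps ribosomal RNA, was at 46400.2 and 50474 CPM in the neutrophils of the PSNL samples, 7942 and 8533 CPM in those of the crush samples and 13712 CPM in the sham male's. Of the 14 macrophage markers 1, Lyve1, was at 0 in all neutrophil samples, and their sum was 5325 and 6936 CPM after PSNL, 525 and 685 CPM after crush and 2779 CPM in the sham male, with C1qa and C1qc at 0 after crush. The 11 dendritic cell markers, with 3 (Zbtb46, Itgae and Xcr1) at 0 in all neutrophil samples, summed to 3328 and 3951 CPM, 149.9 and 79 CPM, and 2965 CPM in the same order. Monocyte markers summed to 995 and 1859 CPM after PSNL, 0 and 316 CPM after crush and 0 CPM in the sham male. The other barcodes held 8949 to 25001 CPM of macrophage markers. The sums in PSNL neutrophils lay above those in crush neutrophils for each of these 3 lists. The 9 Arg1 Spp1 macrophage markers had another order, with 4193 and 6312 CPM after PSNL, 7718 and 948 CPM after crush and 649 CPM in the sham male, so that the crush female was highest. For all 4 lists their part in the differences below was not tested other than by leaving out the barcodes with C1q UMIs or with 5000 UMIs or more.

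**Figure D4:**
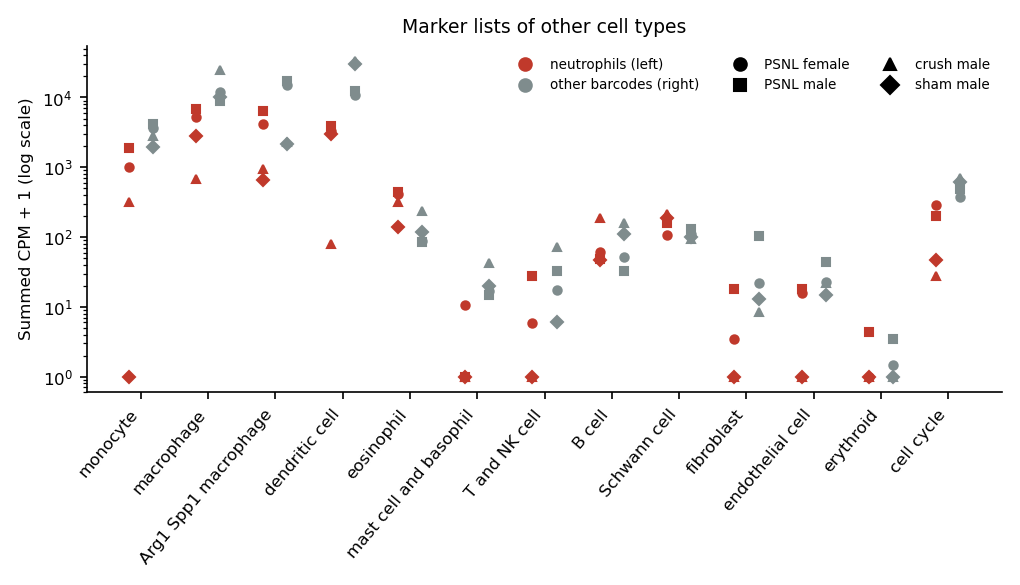
Summed CPM plus 1 (y axis, log scale) of 13 marker lists in the neutrophils (left of each pair) and the other barcodes (right) of the PSNL female, PSNL male, crush male and sham male. Macrophage and dendritic cell markers in neutrophils are lowest in the crush male (685 and 79.0 CPM), and T and NK cell markers reach at most 27.0 CPM in neutrophils.

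PSNL neutrophils differed from sham neutrophils in 50 of 3030 genes (1.65%), 42 higher and 8 lower. The split depends on the scaling. Relative to plain totals 33 were higher and 44 lower, and the median log2 difference of all genes was 0.40 under TMM and 0.06 under plain totals. The sham side of this comparison is the sham male's 12 neutrophils.

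Of the 10 cytosolic neutrophil proteins tested, which include the stefins, 3 were higher after PSNL (1.39% of all genes were) and 1 lower, with a median log2 difference of 0.24 against 0.40 over all genes. Stfa2l1, a cystatin-like inhibitor of cysteine proteases, had 1431 and 989 CPM in the neutrophils of the PSNL female and male, against 0 CPM in the sham male's. It was at least 8.71-fold higher after PSNL, where the 0 is taken as 3 counts over the group (adjusted p = 0.000135), and this call held without either PSNL sample. Gm5483, of the same family, was at 1192 and 1518 CPM in PSNL neutrophils and 46.3 CPM, a single UMI, in the sham male's (5.23 ± 0.82 on the log2 scale, adjusted p = 0.000182). The stefin genes are near-identical copies, and reads may have been split or moved between them. Asprv1, a protease found in neutrophils and skin, had 407 and 574 CPM against 0 CPM and was at least 3.53-fold higher (adjusted p = 0.00629, but 0.191 with the PSNL male left out and 0.136 without the barcodes of 5000 UMIs or more). In the crush samples Stfa2l1 stood at 375 and 1896 CPM, so the sham male was the sample without it.

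Of the 11 chemokines, 3 were higher after PSNL and 0 lower. Ccl3 was at 1373 and 2335 CPM in PSNL neutrophils and 324 CPM in the sham male's (2.90 ± 0.56 on the log2 scale, adjusted p = 0.00251). This p was 0.134 with the PSNL female left out, 0.687 with the PSNL male left out (log2 difference 2.24) and 0.115 without the barcodes of 5000 UMIs or more. Ccl4 had 2379.5 and 3205 CPM against 741 CPM (2.30 ± 0.45 on the log2 scale, adjusted p = 0.00251), but 0.326 with the PSNL female left out, 0.998 with the PSNL male left out and 0.108 without the barcodes of 5000 UMIs or more. Cxcl3, a further ligand of Cxcr2, had 522 and 843 CPM against 92.6 CPM (3.26 ± 0.80 on the log2 scale, adjusted p = 0.0289), but 0.316 with the PSNL female left out, 0.998 with the PSNL male left out (log2 difference 2.64) and 0.136 without the barcodes of 5000 UMIs or more. The median log2 difference of the 11 was 3.26, or 0.09 with genes at 0 in a group set to their bound, against 0.40 and 0 over all genes tested. The calls of Ccl3, Ccl4 and Cxcl3 had already ended in the fit with the crush female added and no sample left out. They were not regained when a PSNL sample was then left out. The median of the list was small once genes at 0 were bounded.

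Among cytokines, 1 of 10 tested was higher. Il1rn, the antagonist that blocks the interleukin 1 receptor (chromosome 2, 24336853 to 24351494), was at 1748 and 1471 CPM after PSNL and 556 CPM in the sham male (1.92 ± 0.48 on the log2 scale, adjusted p = 0.0333), but 0.789 with the PSNL female left out, 0.998 with the PSNL male left out and 0.112 without the barcodes of 5000 UMIs or more. Il1b did not pass (-0.41 ± 0.31 on the log2 scale, adjusted p = 0.493), and neither did Cxcl2 (1.02 ± 0.32 on the log2 scale, adjusted p = 0.0922).

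Retnlg and Mmp8 were lower after PSNL than in sham. Retnlg was at 2028 and 1049 CPM in PSNL neutrophils and 7458 CPM in the sham male's (-1.89 ± 0.34 on the log2 scale, adjusted p = 0.00134), but 0.134 with the PSNL female left out (log2 difference -2.65), 0.772 with the PSNL male left out and 0.158 without the barcodes of 5000 UMIs or more. Mmp8, the neutrophil collagenase of the granules (chromosome 9, 7558456 to 7568485), had 100 and 40.5 CPM against 602 CPM (-2.66 ± 0.62 on the log2 scale, adjusted p = 0.0194), but 0.0706 with the PSNL female left out (log2 difference -3.67), 0.687 with the PSNL male left out, 0.535 without the C1q barcodes and 0.194 without the barcodes of 5000 UMIs or more. Cd33, an inhibitory lectin, had 483 and 294 CPM against 1668 CPM (-1.71 ± 0.43 on the log2 scale, adjusted p = 0.0314), but 0.276 with the PSNL female left out (log2 difference -2.32), 0.998 with the PSNL male left out and 0.21 without the barcodes of 5000 UMIs or more. Bmx, a tyrosine kinase of bone marrow cells, had 17.1 and 6.75 CPM against 324 CPM (-4.24 ± 0.92 on the log2 scale, adjusted p = 0.00832, but 0.194 without the barcodes of 5000 UMIs or more), and at most 0.417 CPM in the other barcodes of these samples. The other genes called lower were Ibtk, Syne1, Pnpla2 and Cpd. The calls of Syne1, Pnpla2 and Cpd ended with either PSNL sample left out, and all 4 ended without the barcodes of 5000 UMIs or more. Ibtk and Bmx were not tested in the fits with a PSNL sample left out, so it is not known if their calls depend on 1 of them. Of the lists without a call in this comparison, 17 surface receptors, 8 transcription factors, 10 genes of NF-kB feedback and 16 of glycolysis were tested.

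Several of the rises after PSNL were those of macrophage markers. Spp1, the matrix protein osteopontin, was at 1165 and 1791 CPM in PSNL neutrophils and 46.3 CPM in the sham male's (5.36 ± 0.84 on the log2 scale, adjusted p = 0.000182), while the other barcodes of the PSNL samples held 7086 and 7582 CPM. Its adjusted p was 0.0844 with the PSNL male left out and 0.144 without the barcodes of 5000 UMIs or more. Of the Arg1 Spp1 macrophage markers, 3 of 7 tested were higher (Spp1, Thbs1 and Lgals3, for which the adjusted p was 0.0736 with the PSNL female left out, 0.91 with the PSNL male left out (log2 difference 2.36) and 0.217 without the barcodes of 5000 UMIs or more), and of the macrophage markers 2 of 10. Thbs1, a matrix protein, was higher in neutrophils than in the other barcodes of all 4 samples, with 1487 and 1677 CPM after PSNL against 232 CPM in the sham male (3.16 ± 0.58 on the log2 scale, adjusted p = 0.0016, but 0.152 with the PSNL female left out and 0.252 with the PSNL male left out), and 7043 and 685 CPM after crush. Apoe, a lipid carrier of macrophages, had 3028 and 4065 CPM against 1575 CPM (1.56 ± 0.40 on the log2 scale, adjusted p = 0.0346, but 0.789 with the PSNL female left out, 0.998 with the PSNL male left out, 0.407 without the C1q barcodes and 0.423 without the barcodes of 5000 UMIs or more), and its difference turned to -1.08 without those deeper barcodes.

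Other genes called higher after PSNL were at 0 in the sham male's neutrophils. S100a4, a calcium-binding protein of motile cells, had 336 and 756 CPM in PSNL neutrophils and was at least 3.93-fold higher (adjusted p = 0.01, but 0.117 with the PSNL female left out, 0.998 with the PSNL male left out and 0.474 without the barcodes of 5000 UMIs or more). Hspa1b, an inducible heat shock protein, had 758 and 577 CPM and was at least 4.8-fold higher (adjusted p = 0.0016, but 0.409 with the PSNL female left out, 0.191 with the PSNL male left out and 0.158 without the barcodes of 5000 UMIs or more). Cstb, an intracellular cystatin, had 551 and 1009 CPM and was at least 5.61-fold higher (adjusted p = 0.0016, but 0.0844 with the PSNL male left out and 0.112 without the barcodes of 5000 UMIs or more), and the crush samples held 2098 and 132 CPM. In the other barcodes of the PSNL samples all 3 were higher than in the neutrophils, with S100a4 at 2086 and 2893 CPM, Hspa1b at 1971 and 1425 CPM and Cstb at 1111 and 1467 CPM. Npc2, Fn1, Emp3, Lgals1 and Esd, also at 0 in the sham male, were called higher too, and each of these calls ended with the PSNL female left out. Of the interferon-stimulated genes 2 of 12 were higher, Ifitm3 (1546 and 1596 CPM against 556 CPM, 1.89 ± 0.48 on the log2 scale, adjusted p = 0.0346, but 0.763 with the PSNL female left out, 0.998 with the PSNL male left out and 0.158 without the barcodes of 5000 UMIs or more) and Rsad2 (412 and 547 CPM against 46.3 CPM, 3.73 ± 0.94 on the log2 scale, adjusted p = 0.0333, but 0.212 with the PSNL female left out, 0.687 with the PSNL male left out and 0.375 without the barcodes of 5000 UMIs or more).

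Between the crush male's 21 and the sham male's 12 neutrophils, both of 1 library, the fit called 12 of 3030 genes (0.396%), 8 higher and 4 lower, and relative to plain totals 8 and 6. With 1 sample on each side the spread is that between the PSNL samples, so these p-values hold no replicate of crush or sham, and with the crush female added 0 genes were called (56 unadjusted). Of the cytosolic proteins 3 were higher (0.264% of all genes were) and 0 lower. Of the dendritic cell markers 3 of 4 were lower (0.132% of all genes were). Stfa2l1 had 1896 CPM in the crush male and 375 CPM in the crush female against 0 CPM in the sham male, at least 13.6-fold higher in the crush male (adjusted p = 0.00011, but 0.195 with the crush male left out). Gm5483 had 974 and 899 CPM against 46.3 CPM (4.59 ± 0.94 on the log2 scale, adjusted p = 0.0102, but 0.0517 with the crush male left out and 0.259 without the barcodes of 5000 UMIs or more). Both comparisons share the sham male, whose cells held 0 UMIs of Stfa2l1 and 1 UMI of Gm5483. No UMI of Stfa2l1 or Gm5483 was found in 101 of 179 and 56 of 115 PSNL cells and 8 of 21 cells of the crush male, against 11 of 12 cells of the sham male. Between crush and sham, the fits with a PSNL sample left out hold both crush samples. Their log2 differences are therefore not those of the crush male alone.

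Of the 12 interferon-stimulated genes tested, 2 were called higher in the crush male. Rsad2, the antiviral enzyme viperin, was at 1922 CPM in its neutrophils and 375 CPM in the crush female's, against 46.3 CPM in the sham male's (5.57 ± 0.88 on the log2 scale, adjusted p = 0.000248, but 0.0166 with the PSNL female left out (log2 difference 4.66), 0.0132 with the PSNL male left out (log2 difference 4.73), 0.413 with the crush male left out (log2 difference 2.80) and 0.522 without the barcodes of 5000 UMIs or more). The other was Oasl2, an RNA-sensing family member with 579 CPM against 0 CPM (at least 4.17-fold, adjusted p = 0.0238, but 0.724 with the PSNL female left out, 0.681 with the PSNL male left out, 0.443 with the crush male left out and 0.224 without the barcodes of 5000 UMIs or more). The list's median was 4.00, or 0.76 with genes at 0 set to their bound, against 0 over all genes. The crush female stood lower. Its 16 interferon-stimulated genes summed to 1873 CPM, against 10639 CPM in the crush male, and its other barcodes to 933 CPM, against 4366 CPM in the crush male's, so the crush male was the higher crush sample in both classes of cells.

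Ccl4 had 5715 CPM in the crush male and 1049 CPM in the crush female against 741 CPM in the sham male (3.16 ± 0.49 on the log2 scale, adjusted p = 0.000248, but 0.391 with the PSNL female left out (log2 difference 2.21), 0.209 with the PSNL male left out (log2 difference 2.26), 0.922 with the crush male left out (log2 difference 0.31) and 0.109 without the barcodes of 5000 UMIs or more). H2-Ab1 and H2-Aa, chains of MHC class II, and Cd74 were lower. H2-Ab1 was at 0 CPM in both crush samples, against 880.2 CPM in the sham male, at least 11.1-fold lower (adjusted p = 0.00177, but 1 without the C1q barcodes and 0.109 without the barcodes of 5000 UMIs or more). The other barcodes of the sham male held 5336 CPM of H2-Ab1. The call of H2-Aa had an adjusted p of 0.00282 with the PSNL female left out (log2 difference -5.44), 0.0034 with the PSNL male left out (log2 difference -5.41), 0.519 without the C1q barcodes and 0.2 without the barcodes of 5000 UMIs or more, and that of Cd74 one of 0.17 with the crush male left out (log2 difference -3.39), 0.437 without the C1q barcodes and 0.265 without the barcodes of 5000 UMIs or more. Among the remaining calls Asprv1 was higher in the crush male (adjusted p = 0.00177, but 0.317 with the crush male left out and 0.224 without the barcodes of 5000 UMIs or more). Slfn5 was called higher too (4.18 ± 1.00 on the log2 scale, adjusted p = 0.0486, but 1 with the PSNL female left out (log2 difference 3.26), 0.964 with the PSNL male left out (log2 difference 3.32), 0.928 with the crush male left out (log2 difference 0.49) and 0.319 without the barcodes of 5000 UMIs or more), as was Ifi27l2a (3.45 ± 0.72 on the log2 scale, adjusted p = 0.0111, but 0.435 with the PSNL female left out (log2 difference 2.62), 0.298 with the PSNL male left out (log2 difference 2.68), 0.685 with the crush male left out (log2 difference 0.91) and 0.217 without the barcodes of 5000 UMIs or more). The mitochondrial gene mt-Nd1 was called lower, but its adjusted p was 0.00998 with the PSNL female left out (log2 difference -4.04), 0.0132 with the PSNL male left out (log2 difference -4.00), 0.964 without the C1q barcodes and 0.522 without the barcodes of 5000 UMIs or more. Neither Il1b (-0.035 ± 0.36 on the log2 scale, adjusted p = 1) nor Retnlg (1.27 ± 0.40 on the log2 scale, adjusted p = 0.377) passed.

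Between PSNL and crush neutrophils edgeR called 86 of 3030 genes (2.84%), 65 higher after PSNL and 21 lower. Relative to plain totals there were 88 higher and 51 lower, and the median log2 difference of all genes was 0.21 under TMM and 0.10 under plain totals. The injury models came from separate libraries. Retnlg had the lowest adjusted p of the listed neutrophil genes.

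Retnlg stood at 2028 and 1049 CPM in the neutrophils of the PSNL female and male, against 4346 and 15432 CPM in those of the crush female and male, so both PSNL samples lay below both crush samples. The sham male had 7458 CPM. The test gave -3.15 ± 0.33 on the log2 scale, adjusted p = 5.48e-08. The adjusted p was 0.0835 with the PSNL male left out (log2 difference -2.17), 0.249 with the crush male left out (log2 difference -0.86) and 0.0465 with the sham male left out (log2 difference -2.49), and ran from 2.29e-20 to 0.249 over all alternatives. Thinned to 1000 UMIs, a Retnlg UMI was found in 52.3% and 34.7% of the PSNL female's and male's neutrophils, against 90% of the crush male's and 80% of the sham male's (unthinned 64.2, 47, 90.5 and 83.3%). In the other barcodes the thinned shares were 1.32, 1.43, 5.42 and 0%. At equal depth a smaller share of PSNL neutrophils held the transcript. Retnla, a close relative of Retnlg, was at 4.88 and 0 CPM in PSNL and 74.9 and 26.3 CPM in crush neutrophils, and at 3294 and 817 CPM in the other barcodes of the crush samples, where reads may have been assigned to either gene.

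Mmp8 was at 100 and 40.5 CPM after PSNL against 749 and 606 CPM after crush (-2.89 ± 0.53 on the log2 scale, adjusted p = 0.000736, but 0.00772 with the PSNL female left out (log2 difference -3.78), 0.154 with the PSNL male left out and 0.135 without the barcodes of 5000 UMIs or more), without overlap. A Mmp8 UMI was found in 3.92% and 3.06% of thinned PSNL neutrophils, against 35% in the crush male and 20% in the sham male (unthinned 14, 8.7, 47.6 and 25%). It was 1 of 7 tertiary granule genes called lower (0.693% of all genes were), and 0 were called higher. Mmp9 pointed the same way without passing (-1.21 ± 0.39 on the log2 scale, adjusted p = 0.0815). Of the 10 cytosolic proteins, 2 were lower, Retnlg and Wfdc21, a small secreted protein of the whey acidic family, which was at 444 and 297 CPM against 749 and 1211 CPM (-1.53 ± 0.41 on the log2 scale, adjusted p = 0.0253, but 0.557 with the PSNL female left out, 0.999 with the PSNL male left out, 0.783 with the crush male left out (log2 difference -0.38), 0.187 with the sham male left out, 0.0742 without the C1q barcodes and 0.296 without the barcodes of 5000 UMIs or more).

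**Figure D5:**
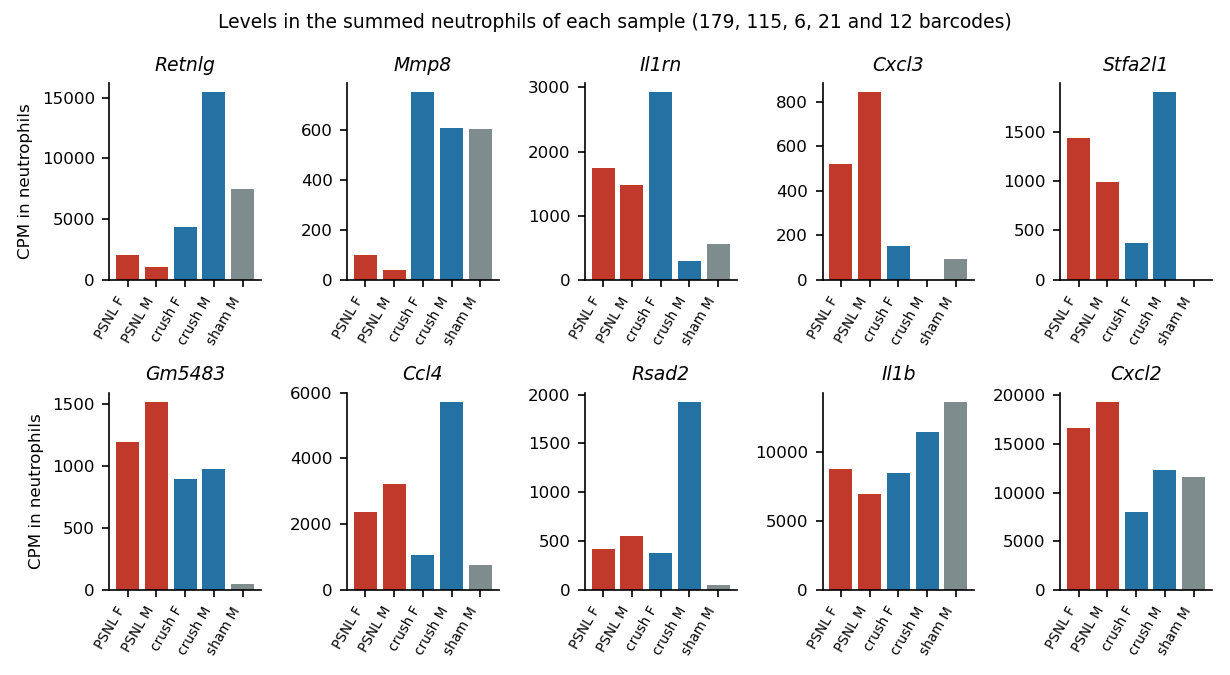
CPM (y axis, linear, from 0) of 10 genes in the summed neutrophils of the PSNL female and male, crush female and male and sham male, which hold 179, 115, 6, 21 and 12 barcodes; each bar is 1 sample. Retnlg and Mmp8 are lower in both PSNL samples than in the crush and sham samples, and Stfa2l1 is at 0 in the sham male.

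Cytokines went both ways, with 1 of 10 higher after PSNL and 1 lower. Osm, oncostatin M, a cytokine of the interleukin 6 family, was at 393 and 314 CPM after PSNL against 525 and 1159 CPM after crush (-1.54 ± 0.40 on the log2 scale, adjusted p = 0.0236, but 0.747 with the PSNL female left out, 0.999 with the PSNL male left out, 0.976 with the crush male left out (log2 difference 0.067), 0.221 with the sham male left out and 0.227 without the barcodes of 5000 UMIs or more). Il1rn was called higher (2.64 ± 0.49 on the log2 scale, adjusted p = 0.000805, but 0.998 with the PSNL female left out (log2 difference 0.23), 0.999 with the PSNL male left out (log2 difference 0.36), 0.82 with the crush male left out (log2 difference -0.23) and 0.74 with the sham male left out (log2 difference 0.54)), but the crush samples lay far apart, with 2922 CPM in the crush female and 289.7 CPM in the crush male around 1748 and 1471 CPM after PSNL. Il1b (-0.37 ± 0.30 on the log2 scale, adjusted p = 0.511) and Cxcl2 (0.72 ± 0.31 on the log2 scale, adjusted p = 0.19) did not pass with all 4 samples. Without the crush male Cxcl2 was called higher (1.82, adjusted p = 0.000317). Cxcl3 had 522 and 843 CPM after PSNL, 149.9 CPM in the crush female and 0 CPM in the crush male, at least 8.64-fold higher than in the crush male (adjusted p = 0.000191, but 0.461 with the PSNL male left out), and was the 1 chemokine of 11 called. Neither Ccl4 (-0.86 ± 0.33 on the log2 scale, adjusted p = 0.138) nor Stfa2l1 (-0.48 ± 0.37 on the log2 scale, adjusted p = 0.489) passed between the injuries.

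Rsad2 was 1 of 12 interferon-stimulated genes called lower after PSNL (-1.83 ± 0.38 on the log2 scale, adjusted p = 0.00257, but 0.94 with the PSNL female left out (log2 difference -0.97), 0.919 with the PSNL male left out, 0.409 with the crush male left out (log2 difference 0.99), 0.284 with the sham male left out (log2 difference -1.21) and 0.36 without the barcodes of 5000 UMIs or more), at 412 and 547 CPM against 375 CPM in the crush female and 1922 CPM in the crush male. The PSNL samples thus lay above the female and below the male. Cflar, an inhibitor of death receptor signals, was at 219 and 236 CPM after PSNL and 0 CPM in both crush samples, and was the 1 survival gene of 10 called (adjusted p = 0.0112, but 0.0793 with the crush male left out and 0.137 without the barcodes of 5000 UMIs or more). Among the surface receptors 0 of 17 were called, among the transcription factors 0 of 8 and among the glycolysis and hypoxia genes 0 of 16.

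Bmx and Sla, an adaptor that dampens receptor signals in blood cells, were lower after PSNL. Bmx was at 17.1 and 6.75 CPM in PSNL neutrophils, against 74.9 and 158 CPM in crush neutrophils (-3.43 ± 0.94 on the log2 scale, adjusted p = 0.033, but 0.579 with the crush male left out (log2 difference -1.89) and 0.296 without the barcodes of 5000 UMIs or more). Sla was at 56.1 and 57.4 CPM against 225 and 369 CPM (-2.52 ± 0.56 on the log2 scale, adjusted p = 0.00538, but 0.878 with the PSNL female left out, 0.999 with the PSNL male left out, 0.44 with the crush male left out (log2 difference -1.34), 0.0643 with the sham male left out and 0.16 without the barcodes of 5000 UMIs or more). Both PSNL samples lay below both crush samples for either gene. Slfn8 and Cmpk2, which interferon induces, were called lower as well, with 39 and 27 CPM (Slfn8) and 61 and 47.2 CPM (Cmpk2) after PSNL, 0 CPM of both in the crush female and 289.7 CPM of both in the crush male. The adjusted p was 0.227 without the barcodes of 5000 UMIs or more for Slfn8 and 0.307 with the sham male left out and 0.235 without the barcodes of 5000 UMIs or more for Cmpk2. Fam160a2, Ccpg1 and Arhgap15 were also called lower. The call of Fam160a2 ended without the barcodes of 5000 UMIs or more. Those of Ccpg1 and Arhgap15 ended with any 1 sample other than the crush female left out, Ccpg1 turning to 0.36 without the crush male. Slfn8, Cmpk2 and Fam160a2 were not tested in the fits with a PSNL sample or the crush male left out, nor was Bmx in those with a PSNL sample left out.

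Genes of other myeloid cells were among those higher after PSNL. All 4 dendritic cell markers tested, 5 of 10 macrophage markers, 2 of 7 monocyte markers and 2 of 7 Arg1 Spp1 markers were higher after PSNL (2.15% of all genes were), and 0 of any were lower. H2-Ab1 was at 639 and 712 CPM in PSNL neutrophils and 0 CPM in both crush samples, at least 8.55-fold higher (adjusted p = 0.000119, but 0.202 without the barcodes of 5000 UMIs or more), although the other barcodes of the PSNL samples held less of it (1850.1 and 2229 CPM) than those of the crush samples (4963 and 5791 CPM). Cd74 had 1419 and 1734 CPM against 74.9 and 26.3 CPM (6.04 ± 0.78 on the log2 scale, adjusted p = 2.71e-06, but 5.26e-05 with the PSNL male left out (log2 difference 5.23), 2.16e-05 with the crush male left out (log2 difference 5.01) and 0.196 without the barcodes of 5000 UMIs or more). Apoe had 3028 and 4065 CPM against 299.7 and 474 CPM (3.08 ± 0.45 on the log2 scale, adjusted p = 3.56e-05, but 5.05e-07 with the crush male left out (log2 difference 4.20), 0.306 without the C1q barcodes and 0.7 without the barcodes of 5000 UMIs or more). Spp1 had 1165 and 1791 CPM against 0 CPM in both crush samples, at least 18.7-fold higher (adjusted p = 2.42e-06, but 0.0859 without the barcodes of 5000 UMIs or more). C1qa was at 424 and 729 CPM against 0 CPM in both, at least 7.3-fold higher (adjusted p = 0.000515, but 0.452 with the PSNL male left out). S100a4 and Hspa1b, too, were at 0 CPM in both crush samples (S100a4 adjusted p = 0.00103, but 0.999 with the PSNL male left out and 0.413 without the barcodes of 5000 UMIs or more; Hspa1b adjusted p = 0.00014, but 0.113 without the barcodes of 5000 UMIs or more), as was C1qc (adjusted p = 0.00378, but 0.0966 with the PSNL female left out). Rps18, of the small ribosomal subunit, was at 375 and 459 CPM against 74.9 and 0 CPM (adjusted p = 0.00113, but 0.326 with the PSNL female left out, 0.999 with the PSNL male left out, 0.0801 with the crush male left out and 0.279 without the barcodes of 5000 UMIs or more). Leaving out the C1q barcodes ended the Apoe call, and C1qa then could not be tested. It took the PSNL female from 179 to 167 neutrophils, the PSNL male from 115 to 102 and the sham male from 12 to 10. The crush samples kept their 6 and 21, so they held no C1q barcode with 1 hashtag. The levels at 0 after crush are those of samples without such barcodes. Without the barcodes of 5000 UMIs or more, the fitted log2 difference was 3.60 for Cd74, 7.39 for H2-Ab1 (beside 10.04) and 10.45 for Spp1 (beside 11.17), of which those of H2-Ab1 and Spp1, at 0 after crush, depend on the prior count. With the C1q barcodes out 88 genes were called, and with those of 5000 UMIs or more out 5 were called, 3 higher and 2 lower.

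A further test asked whether the PSNL minus crush difference in neutrophils differed from that in the other barcodes of the same samples, with the sample as a block. The crush side was the crush male alone. The fit had 4 samples, 1 residual degree of freedom and an infinite prior, so its p-values rest on the spread pooled over genes. It called 400 of 7456 genes (5.36%), 348 (4.67%) with a more positive difference in neutrophils and 52 (0.697%) with a more negative one. The 52 include 2 genes of the rule, S100a8 and S100a9, from which nothing is read. Under plain totals the split was 80 and 105, and the median of all genes was 1.94 under TMM and 1.14 under plain totals, so each difference is read against that shift. With 1 PSNL sample left out 8 genes (no female) or 3 genes (no male) were called.

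Several inflammatory genes had a larger PSNL minus crush difference in the other barcodes than in the neutrophils. Clec4d, a C-type lectin that senses damage, was at 2145 and 1869 CPM in PSNL neutrophils and 1791 CPM in the crush male's, a difference of 0.16 on the log2 scale of CPM plus 10, while in the other barcodes it was at 386 and 505 CPM against 15 CPM, a difference of 4.18. The interaction was -3.87 (adjusted p = 3.20e-15, but 0.143 with the PSNL female left out, 0.506 with the PSNL male left out and 1.26e-16 with the crush male left out (log2 difference -4.51)). Cxcl2 differed by 0.54 in neutrophils and by 3.86 in the other barcodes (interaction -2.53, adjusted p = 4.01e-06, but 0.848 with the PSNL female left out (log2 difference -1.27), 0.892 with the PSNL male left out (log2 difference -0.79), 0.773 with the crush male left out (log2 difference -0.33) and 0.394 with the sham male left out (log2 difference -1.11)), and Il1b by -0.55 and 1.98 (interaction -1.77, adjusted p = 0.00142, but 0.848 with the PSNL female left out, 0.88 with the PSNL male left out (log2 difference -0.84), 0.174 with the sham male left out and 0.0777 without the C1q barcodes). Osm, Mmp8 and Wfdc21 were lower after PSNL in neutrophils and higher in the other barcodes (-1.69 beside 2.16, -3.05 beside 1.04 and -1.71 beside 0.74). The adjusted p of the interaction was 0.407 with the PSNL female left out (log2 difference -2.97), 0.854 with the PSNL male left out (log2 difference -1.44), 0.697 with the crush male left out (log2 difference -1.05) and 0.000182 with the sham male left out (log2 difference -2.43) for Osm, 0.229 with the PSNL male left out (log2 difference -3.71) for Mmp8 and 0.617 with the PSNL male left out (log2 difference -4.79) and 0.000674 with the crush male left out (log2 difference -6.65) for Wfdc21. Some neutrophil RNA was counted in the other barcodes, where S100a8 stood at 454 and 758 CPM in the PSNL samples against 34.7 CPM in the crush male, and its part in these differences was not tested.

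The Retnlg difference had the same value in both classes, -3.39 in neutrophils and -3.39 in the other barcodes, and the interaction did not pass (1.04, standard error 0.39, adjusted p = 0.0947). Both differences of -3.39 use the crush male alone on the crush side. Leaving out 1 sample the interaction of Retnlg ran from 0.51 to 2.05, and 1 of 17 alternatives passed. In the other barcodes Retnlg was at 75.3 and 48.4 CPM after PSNL, 372 and 732 CPM after crush and 5.1 CPM in the sham male. H2-Ab1 and C1qa went the other way, higher after PSNL in neutrophils (by 6.10 and 5.82) and lower in the other barcodes (by -1.51 and -1.28). Their interactions passed (adjusted p = 1.61e-16 and 9.75e-16), that of H2-Ab1 under all alternatives run and that of C1qa but 0.404 without the C1q barcodes.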

How the data were processed

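Single-cell RNA and hashtag antibody counts of 4 libraries were analysed, and the results turn on the 2 libraries of 1 week. Per the submitters' processing notes and the file headers, the authors made the count matrices with Cell Ranger (6.0.0 at 1 week, 7.0.0 at 15 weeks) on GRCm38 and used Seurat 5.1.0 downstream, and the deposited values are raw UMI counts per gene and barcode. The matrices still held barcodes below the filters used here.

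Barcodes with at least 200 genes and under 10% mitochondrial UMIs were kept. A hashtag counted as present above the valley between the low and high modes of its log counts, and barcodes with 1 hashtag made up a sample. UMIs were summed per sample and class, and samples with at least 10 neutrophils entered edgeR's quasi-likelihood test with TMM scaling. Levels are CPM of plain totals. Log2 differences beside the other barcodes use CPM plus 10. No doublet caller was run; barcodes with several hashtags were left out, and fits without barcodes of 3 or more C1q UMIs, or of 5000 UMIs or more, were added. Shares carry exact (Clopper-Pearson) 95% intervals, levels from few UMIs exact Poisson ones, and the limit that a count of 0 allows is 3 counts. These cover counting error only.

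The cells and the gene lists were chosen with earlier results of these data known. Genes named are list members (up to 6 a list, by level or call), the 20 that led over the other barcodes, and the 10 largest rises and falls of each comparison among called genes of at least 50 CPM. Of 273 listed genes 272 were measured, and Azu1 was not found. Whether the samples of a group came from separate animals is not stated, so p-values need not measure the spread between animals. Those of edgeR rest on the difference between the PSNL samples and mostly on a spread pooled over genes. Promoters are from RefSeq (GRCm38.p6) and positions from the GENCODE M21 annotation of GRCm38. The procedure recovered seeded changes when tested on simulated data. All simulated samples had the same spread, so this could not test if the lone crush and sham samples vary like the PSNL samples. Tools were R 4.3.3, edgeR 4.0.16, limma 3.58.1, DESeq2 1.42.0, Seurat 5.3.0 (HTODemux), Python 3.11.15, numpy 2.4.6, scipy 1.17.1, pandas 2.3.3 and matplotlib 3.10.9.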

Additional observations from a re-analysis of the deposited data

Results flagged for a closer look

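For 9 genes the PSNL minus crush difference in neutrophils differed, by an interaction test in edgeR, from that in the other barcodes of the same samples. On the log2 scale the interaction was -3.87 for Clec4d, -3.66 for Ifitm1, -3.75 for Osm, -4.72 for Mmp8, -7.45 for Wfdc21, -2.53 for Cxcl2 and -1.77 for Il1b, so the difference was more negative in neutrophils, and 14.20 for C1qa and 14.69 for H2-Ab1, where it was more positive. C1qa and H2-Ab1 were at 0 in the crush neutrophils, so the size of their values depends on the prior count and is no bound. For Ifitm1, an interferon-induced membrane protein, the difference was -0.50 in neutrophils and 3.73 in the other barcodes, and without the crush male the interaction turned to 1.85. Ifitm1 did not stand for its list. Of the 16 interferon-stimulated genes tested the interaction was positive in 13, with a median of 1.34 beside 1.94 over all genes. With 1 PSNL sample left out 8 or 3 genes were called in all. Leaving out 1 sample, the interaction ran over -4.51 to -3.43 for Clec4d, -4.28 to -1.05 for Osm, -5.25 to -3.71 for Mmp8, -8.30 to -4.79 for Wfdc21, -3.06 to -0.33 for Cxcl2 and -2.29 to -0.84 for Il1b. With the PSNL male left out the adjusted p was 0.506 (Clec4d), 0.854 (Ifitm1), 0.854 (Osm), 0.229 (Mmp8), 0.617 (Wfdc21), 0.892 (Cxcl2) and 0.88 (Il1b), so these 7 calls ended. That of C1qa ended without the C1q barcodes, and that of H2-Ab1 was kept under every alternative run.

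Outside the comparisons lay 178 neutrophils of 1 week with no hashtag or several, of which 163 and 12 had several. In those of the PSNL library with several hashtags Xist was at 408 CPM and Ddx3y at 39.3 CPM, and in those of the crush library at 449 and 115 CPM. These are sums over barcodes of libraries that pool male and female samples. They do not show if a single barcode held RNA of both sexes.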

How the results depend on the processing

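The crush and sham levels rest on 21 and 12 neutrophils, and 1 UMI makes 26.3 CPM in the crush male and 46.3 CPM in the sham male, which limits low genes. Of 87 gene differences in the text 76 were called and 1, the interaction of H2-Ab1, stayed called under every alternative run. The fits with at least 5 neutrophils per sample, with neutrophils of under 5000 UMIs and with the sex block were chosen after seeing the data. Ranges of calls and log2 differences from leaving out 1 sample take in the fit without the crush female, which is the main fit itself. They also take in fits of 3 samples without it. The cause of these changes was not tested.

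For PSNL against sham (50 genes called), the count was 101 with at least 500 genes per barcode, 15 with DESeq2, 76 where the top hashtag was at least 3 times the second, 85 with HTODemux, 92 without Gm42418, Malat1, AY036118 and mitochondrial genes, 77 with plain totals, 0 with at least 2% S100a8 plus S100a9 (302 at an unadjusted p under 0.05), 0 with at least 5 neutrophils (133 unadjusted) and 4 under 5000 UMIs. Leaving out 1 sample gave 2 to 89. For crush against sham (12 called) it was 1 with DESeq2, 5 with the hashtag ratio, 0 with 2% S100a8 plus S100a9 (180 unadjusted), 0 with at least 5 neutrophils (56 unadjusted), 1 under 5000 UMIs and 12 to 21 leaving out 1 sample. For PSNL against crush (86 called) these settings gave 151 with 500 genes, 11 with DESeq2, 159 with the hashtag ratio, 153 with HTODemux, 149 without Gm42418 and the others, 139 with plain totals, 0 with 2% S100a8 plus S100a9 (359 unadjusted), 24 with at least 5 neutrophils, 5 under 5000 UMIs and 11 to 136 leaving out 1 sample. For the interaction (400 called) they gave 75 with DESeq2, 261 with the hashtag ratio, 67 without the C1q barcodes, 168 without a filter on low counts, 185 with plain totals, 67 under 5000 UMIs and 3 to 400 leaving out 1 sample. The share differences ran from 6.21 to 23.8 percentage points (PSNL against sham), from -8.52 to 0.956 (crush against sham, above 0 only without the sham male) and from 9.99 to 27.5 (PSNL against crush) leaving out 1 sample.

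Log2 differences that turned their direction were those of Apoe between PSNL and sham (-1.08 under 5000 UMIs), Cd74 (0.91 with the hashtag ratio), Il1b (0.025 with 500 genes), mt-Nd1 (0.84 with the hashtag ratio), Cxcl2 (-0.10 with at least 5 neutrophils, -0.74 to 0.30 leaving out 1 sample) and Retnlg (-0.97 to 1.27) between crush and sham. Between PSNL and crush, leaving out 1 sample gave -1.54 to 0.067 for Osm, -2.48 to 0.36 for Ccpg1, -1.83 to 0.99 for Rsad2, -0.23 to 2.66 for Il1rn, -0.37 to 0.53 for Il1b (0.047 under 5000 UMIs), -0.86 to 2.05 for Ccl4 and -0.48 to 2.32 for Stfa2l1 (0.17 with at least 5 neutrophils). For the Ifitm1 interaction it gave -4.19 to 1.85.

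No paired analysis was possible in the 4-sample fit because sex as a replicate block left 0 residual degrees of freedom. With at least 5 neutrophils per sample, the replicate block by sex gave 19 calls between PSNL and sham, 10 between crush and sham and 53 between PSNL and crush, and turned Ccl4 to 0.34 and Stfa2l1 to 0.48 between PSNL and crush.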
